A study of Homo sapiens with 26 samples.

Results

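The comparison sets untreated A549 cells against untreated H1299 cells. It takes the 9 arrays of these lines that received vehicle alone, 4 of A549 and 5 of H1299, out of 26 arrays in the series, chosen by their titles. It describes all 17687 genes that a single symbol names. A549 and H1299 are established human lines, both labelled as lung carcinoma. A549 is a widely used epithelial line from a lung adenocarcinoma, and H1299 was grown from the lymph node metastasis of a non-small cell lung cancer. All cultures were kept in RPMI1640 medium with glutamine and foetal bovine serum, plated, left overnight, and then given PBS. No array in the comparison received Omomyc, a shortened and altered MYC protein that interferes with MYC, and the labels name no transgene or selection in either line. The series also holds the line H1975, labelled as lung adenocarcinoma (4 PBS arrays, used here for position alone), and arrays given 12.8 µM Omomyc (3 of A549 and 5 of H1299, used here as a second set of arrays for the same contrast). The labels call the arrays of a group biological replicas, so p-values measure the spread between cultures of 1 line each, as far as these arrays show it, and say nothing about other lines.

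Each line is known for its own alterations. A549 carries a mutated KEAP1 and has lost CDKN2A, while H1299 is known for the loss of p53 function. KEAP1 is the protein that holds the transcription factor NRF2 (gene NFE2L2) down by sending it for degradation, and NRF2 set free switches on genes for glutathione, thioredoxin, NADPH and the detoxification of quinones and aldehydes. p53 switches on genes of arrest, death and repair after damage. These statements are background; the arrays report RNA levels and no sequence.

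Values were log2 array signals as deposited, and a difference of 1 is a doubling of signal. On the 9 arrays they ran from 1.35 to 19.77. The mean level of 23 background probe sets lay between 2.38 and 6.85, and a gene mean at or below 6.85 is described here as within background, where a difference in signal has no known fold in RNA. In all, 8391 genes were within background in both lines. Signal of 1 probe set cannot be set against that of another, so levels are compared between arrays for 1 gene at a time. In a bulk sample, fewer cells with a transcript and less of it per cell cannot be told apart. The arrays were grouped into 3 sets by the distribution of their values, and the number 3 was set for the grouping, not found by it. The sets are called runs here, and each held untreated arrays of both lines. The runs were A549 arrays 1 and 2 with H1299 array 1, A549 array 3 with H1299 arrays 2 and 3, and A549 array 4 with H1299 arrays 4 and 5. The runs carry no label, and whether they are batches of culture, of hybridisation or of normalization cannot be told apart. The median SD within a group was 0.37. Of the markers that were to check the cell type, all 6 epithelial markers were well above background in A549, where KRT8 read 17.48 ± 0.10 and EPCAM 9.54 ± 0.28 (mean ± SD, n = 4 arrays for A549 and n = 5 for H1299, here and below). Where a pair of means stands in brackets below, the A549 value comes before the H1299 value. In H1299, KRT8 (13.75 ± 0.32) and KRT18 (12.95 ± 0.38) were above background, while EPCAM (3.92 ± 0.61), CDH1, KRT7 and KRT19 were within it. Fibroblast (6 measured), endothelial (8) and erythroid (4) markers were within background in both lines, as were 6 of 7 leukocyte markers. CD14 was the exception, 9.45 ± 0.51 in A549 against 3.35 ± 0.45 in H1299. The mean of the fibroblast markers ran from 3.87 to 4.31 over the A549 arrays and from 3.48 to 4.28 over the H1299 arrays.

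The lines differed at 7276 of 17687 genes (41.1%) by limma with Benjamini-Hochberg adjusted p under 0.05. Of these, 3324 (18.8% of all genes) were higher in A549 and 3952 (22.3%) higher in H1299, against a median difference over all genes of -0.10. Among the 9289 genes above background in at least 1 line, the shares were 28.3% and 33.4%. Counts of list members below are to be read beside these shares, the latter pair where most members are above background. At least 4-fold differences with the same adjusted p numbered 1241 on the A549 side (7.02%) and 1071 on the H1299 side (6.06%). All 2312 of them had the same direction within each of the 3 runs, and all stayed called when any 1 of the 9 arrays was left out. These genes were chosen for their size and adjusted p on the same 9 arrays. Such agreement was thus largely set by the choice and is no separate support. In many, 1 line was within background. This held in H1299 for 839 of the 1241 genes higher in A549, and in A549 for 630 of the 1071 higher in H1299. The limit is the highest of the background means, so a gene below it need not be without RNA. The extremes were uneven, with 85 genes more than 8 log2 units higher in A549 and 19 in H1299.

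**Figure D1:**
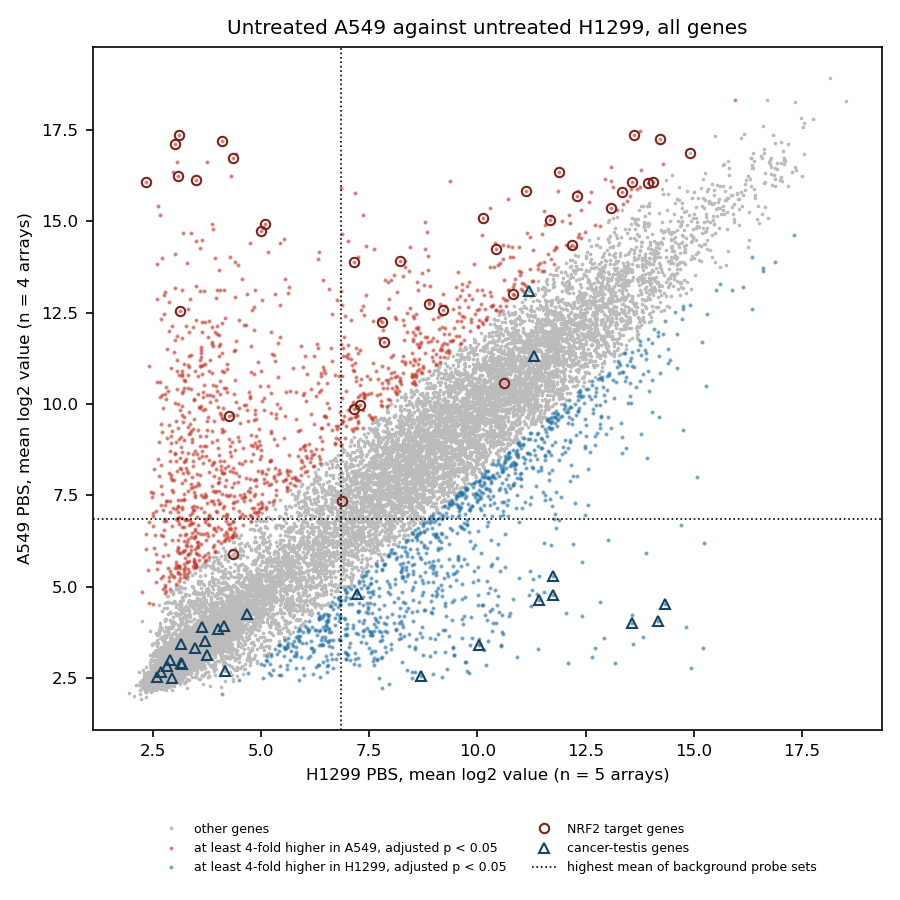
Mean log2 value of every gene in H1299 PBS arrays (horizontal axis, n = 5) against A549 PBS arrays (vertical axis, n = 4), with genes called at least 4-fold apart in colour, NRF2 target genes as open circles, cancer-testis genes as open triangles and dotted lines at the highest mean of the background probe sets, 6.85. Nearly all circles lie above the diagonal, and 9 triangles lie below it, with H1299 above 6.85 and A549 under it.

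The 4 widest A549 gaps were those of enzymes which reduce carbonyls or oxidise aldehydes (AKR1C3, AKR1B10, AKR1C2 and ALDH1A1). AKR1C3, an aldo-keto reductase of steroids and prostaglandins, read 17.40, 17.27, 17.60 and 17.20 on the 4 A549 arrays and 2.76, 3.17, 3.17, 3 and 3.40 on the 5 H1299 arrays. The A549 mean lay 10.52 log2 units above the highest background mean, and no H1299 array rose above background. AKR1B10, which reduces retinal and other aldehydes, read 17.26, 17.20, 17.16 and 16.78 in A549 and 3.47, 3.26, 3.03, 2.86 and 2.39 in H1299. ALDH1A1, which makes retinoic acid from retinal, read 16.61 ± 0.16 in A549 and 3.06 ± 0.11 in H1299 (log2 difference 13.54, SE 0.18, adjusted p = 8.84e-15). The other A549 genes among the 15 with the widest gaps were AKR1C2, AKR1B15 and AKR1C1 of the same reductase family, ALDH3A1, CYP24A1 (which inactivates vitamin D), CA12 (a carbonic anhydrase), FGB and FGA (fibrinogen chains), GPX2, KRT7, CPLX2 (a complexin of vesicle release) and AGR2 (a disulfide isomerase of mucous cells). The members AKR1C1, AKR1C2 and AKR1C3, and likewise AKR1B10 and AKR1B15, are near copies of each other in sequence, so their probe sets may share signal and their separate values are uncertain.

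On the H1299 side the 15 widest gaps included cancer-testis antigens of the GAGE and MAGE families, normally silent outside germ cells. The widest was that of GAGE12G, which read 2.49, 2.64, 2.80 and 3.16 in A549 and 13.80, 14.60, 15.14, 15.41 and 15.70 in H1299. CDKN2A, whose products p16 and p14ARF restrain the cell cycle and MDM2, read 3.29, 3.07, 3.55 and 3.42 in A549 and 14.62, 15.43, 15.79, 15.05 and 15.21 in H1299. A549 was at background on all 4 arrays and H1299 lay 8.37 above its ceiling. It was followed by G0S2, an inhibitor of fat breakdown (3.90 ± 0.28, 14.81 ± 0.31). Among the others were FGF5, a fibroblast growth factor (3.63 ± 0.49, 13.84 ± 0.26), and NTSR1, a neurotensin receptor (3.08 ± 0.63, 12.66 ± 0.53). GAGE10, GAGE13, GAGE2A, GAGE1, MAGEA4, MUC15, H2AC8, TMEM158, LPAR3 and ANTXR2 completed the 15. GAGE genes are near-identical copies, and their separate values are uncertain in the same way.

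Among the 32 gene lists, NRF2 target genes had the largest share on 1 side. NRF2 binds antioxidant response elements, with the core letters TGACNNNGC, in the promoters and enhancers of its targets. This core occurred on either strand within 250 bases before a RefSeq start in 9 of 29 list members that have a promoter entry (31%) and in 2150 of 14250 genes (15.1%). The core followed by an A, a narrower form that lies within those matches, occurred in 6 of 29 members (20.7%) and in 490 of 14250 genes (3.44%). Of 24 liver and gut markers with an entry, 1 held the core and 0 the narrower form. These counts take any listed start of a gene; at each gene's first listed start the core was held by 7 of 29 (24.1%) and 1680 of 14250 genes (11.8%) and the narrower form by 4 of 29 (13.8%) and 368 of 14250 genes (2.58%). The patterns were chosen after shares had been seen, from 6 looked at. A looser form, TGANNNNGC followed by an A, occurred in 10 of 29 NRF2 targets, 2 of 24 liver and gut markers and 12.2% of all genes. GTTAAT followed by an open letter and ATT, an HNF1 pattern, occurred in 0 of 29 NRF2 targets, 3 of 24 liver and gut markers and 0.379% of all genes. With 2 open letters and TT after GTTAAT the counts were 0 of 29 NRF2 targets, 5 of 24 liver and gut markers and 0.94% of all genes. TATAAA occurred in 6 of 29 NRF2 targets, 5 of 24 liver and gut markers and 11.7% of all genes. The CpG content of promoters was also looked at and is not used here. A match is a description of letters and does not show binding. The stretches around the match are shown for the 4 members whose most upstream start holds it, because they show the motif's letters in measured members of the list. Capitals mark the match to the narrower form, which reads 5′ to 3′ on the gene's strand and is the reverse complement of the motif in each case. Positions are those of RefSeq on GRCh38.p14.
CBR1, chr21:36069839-36069898, plus strand: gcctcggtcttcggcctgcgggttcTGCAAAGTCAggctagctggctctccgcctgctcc
CYP4F11, chr19:15934990-15935049, minus strand: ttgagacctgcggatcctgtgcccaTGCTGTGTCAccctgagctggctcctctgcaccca
GCLM, chr1:93909431-93909490, minus strand: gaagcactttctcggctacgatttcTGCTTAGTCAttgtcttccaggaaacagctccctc
GPX2, chr14:64942834-64942893, minus strand: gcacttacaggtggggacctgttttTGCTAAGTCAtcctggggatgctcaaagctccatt

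All 4 of these genes were higher in A549. GPX2, a glutathione peroxidase of epithelia, read 16, 16.25, 16.62 and 15.62 in A549 and 4.21, 3.64, 3.46, 3.10 and 3.09 in H1299. CYP4F11, a fatty acid hydroxylase of the cytochrome P450 family, read 12.15, 12.67, 13.03 and 12.32 in A549 and 2.89, 3.15, 3.80, 2.78 and 2.99 in H1299. Both were within background on every H1299 array and far above it on every A549 array. GCLM, the regulatory subunit of the enzyme that starts glutathione synthesis, read 11.43, 11.81, 12 and 11.50 in A549 and 7.52, 7.68, 8.28, 7.78 and 7.91 in H1299. Both lines were above background, with 3.85 log2 units between them (SE 0.22, limma adjusted p = 3.57e-09). CBR1, a carbonyl reductase, showed the smallest gap of these, 14.34 ± 0.12 in A549 against 12.20 ± 0.25 in H1299.

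Of 38 measured NRF2 targets, 36 were called higher in A549 and 0 higher in H1299, against 18.8% and 22.3% of all genes, with a median difference of 3.82 log2 units. The list was drawn up with earlier results of these data known. Its glutathione members all differed: GCLC, the catalytic subunit, read 12.74 ± 0.15 in A549 against 8.89 ± 0.35 in H1299. The cystine importer SLC7A11 read 15.69 ± 0.12 in A549 against 12.31 ± 0.41 in H1299, and glutathione reductase GSR 15.02 ± 0.25 in A549 against 11.68 ± 0.33 in H1299. The exporters of conjugates ABCC2 (14.72 ± 0.39, 5 ± 0.25) and ABCC3 (14.92 ± 0.41, 5.09 ± 0.51) were within background in H1299. MGST1, a membrane glutathione transferase, differed by 4.46.

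The 4 thioredoxin members were above background in both lines. TXNRD1, thioredoxin reductase, read 16, 16.26, 16.59 and 15.48 in A549 and 13.12, 13.66, 13.93, 13.36 and 13.75 in H1299. TXN differed by 1.95, PRDX1 by 2.10 and SRXN1, which repairs peroxiredoxins, by 3.36. The groups of arrays did not overlap for any of them. Absence of overlap is a description of single genes, here and below, since its share over all genes is not given. Enzymes that supply NADPH were also higher in A549: PGD of the pentose phosphate pathway read 14.93, 15.18, 15.40 and 14.87 in A549 and 9.57, 10.95, 11, 9.63 and 9.54 in H1299. Malic enzyme ME1 (13.90 ± 0.22, 8.21 ± 0.29), transketolase TKT (15.78 ± 0.15, 13.35 ± 0.38) and transaldolase TALDO1 (12.99 ± 0.32, 10.82 ± 0.36) followed. Both H1299 arrays of run 2 stood more than a log2 unit above the other 3 in PGD.

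Quinone, aldehyde and drug enzymes of the list were led by ALDH3A1 (16.25 ± 0.35, 3.08 ± 0.41) and included NQO1, the quinone reductase often used as a marker of NRF2 activity. NQO1 read 17.36, 17.53, 17.16 and 17.43 in A549 and 13.20, 13.77, 13.96, 13.53 and 13.63 in H1299. It was far above background in both lines and 3.75 log2 units higher in A549 (SE 0.20, adjusted p = 2.7e-09). EPHX1, an epoxide hydrolase, differed by 6.75, CYP4F3 by 5.40, UGDH, which makes UDP-glucuronate, by 4.70, PTGR1 by 3.80 and CBR3 by 1.54, the latter within background in both lines. Iron and haem genes FTL, HMOX1 and BLVRB differed by 3.04, 2.68 and 2.28. HMOX1, haem oxygenase, varied within both lines: its A549 arrays read 10.45, 10.48, 10.47 and 8.44 and its H1299 arrays 7.99, 7.86, 7.82, 5.90 and 6.80, and array 4 of A549 was the lowest. Of the remaining members, OSGIN1 (4.45), PIR (2.73) and SQSTM1 (2.01) were higher in A549. TRIM16 (10.57 ± 0.27, 10.62 ± 0.52) and CABYR (7.33 ± 0.45, 6.87 ± 0.35) did not pass the test.

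The regulators of the pathway did not share this direction: of 6 measured, 2 were called higher in A549 and 2 in H1299. NFE2L2, the gene of NRF2, read 12.80, 12.71, 13.07 and 12.66 in A549 and 12.82, 12.67, 12.83, 12.72 and 12.72 in H1299. The difference was 0.06 with SE 0.18 and adjusted p = 0.838, and the groups overlapped. BACH1, a repressor that competes for the same element, was higher in H1299 (log2 difference -0.81, SE 0.23, adjusted p = 0.0102), as was CUL3, the ligase partner of KEAP1 (log2 difference -0.76, SE 0.23, adjusted p = 0.0142). KEAP1 was higher in A549 by 0.69 (adjusted p = 0.0209), and lost the call without A549 array 1, when the difference was 0.60, or without A549 array 2, when it was 0.59. MAFG, a small partner of NRF2, was called higher in A549 by 1.14, and its call was lost without any 1 of A549 arrays 1, 2 or 3 or H1299 arrays 1, 4 or 5, when the difference was 0.91 to 1.16. MAFF (log2 difference -0.62, SE 0.48, adjusted p = 0.356) did not pass the test.

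**Figure D2:**
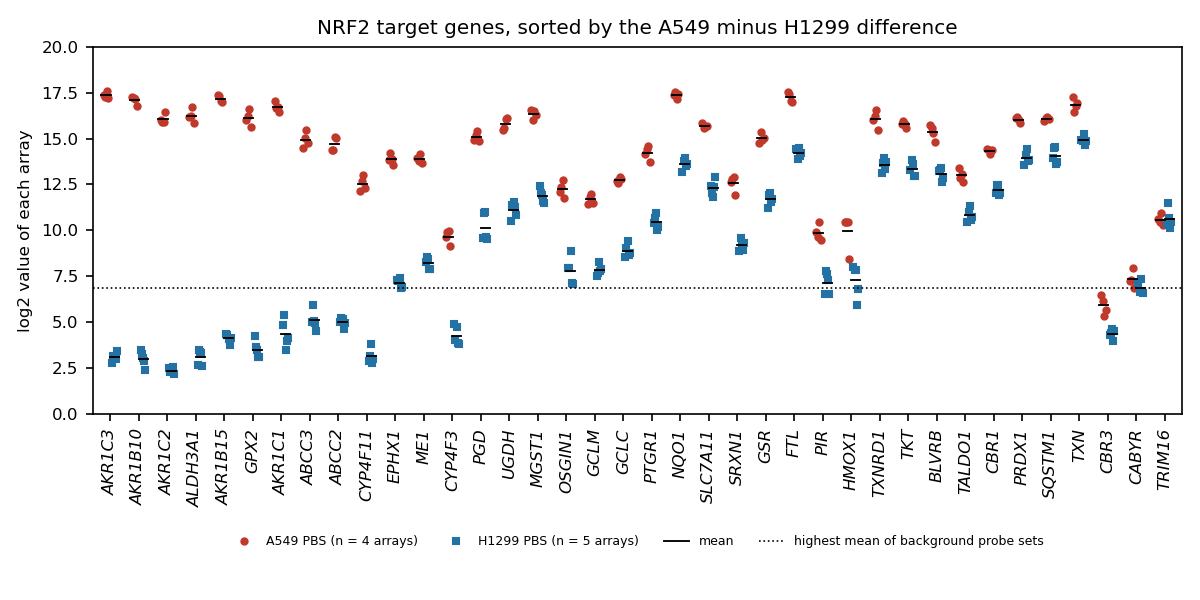
Log2 value of the 38 measured NRF2 target genes on each A549 PBS array (circles) and each H1299 PBS array (squares), sorted by the difference of the means (black lines); the dotted line is the highest mean of the background probe sets, 6.85. The 10 genes at the left are within background in H1299 and lie between 12.54 (CYP4F11) and 17.37 (AKR1C3) in A549, and at the right TRIM16 and CABYR overlap.

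Enzymes of foreign compounds and aldehydes outside the NRF2 list leaned the same way: 20 of 31 measured members were called higher in A549 and 1 higher in H1299, with a median of 1.61. CYP24A1 read 16.36 ± 0.28 in A549 and 2.97 ± 0.52 in H1299. CYP2S1 (13.10 ± 0.69, 3.68 ± 0.17) and ALDH2, the mitochondrial acetaldehyde dehydrogenase (12.83 ± 0.32, 5.02 ± 0.40), followed. AHR, the receptor of dioxin that controls many cytochromes, was high in both lines and higher in A549, 15.29 ± 0.16 in A549 against 11.55 ± 0.11 in H1299. The member called higher in H1299 was ADH5, formaldehyde dehydrogenase, 11.84 ± 0.29 in H1299 against 10.59 ± 0.20 in A549.

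Epithelial genes separated the lines in 1 direction. Of 41 measured junction and identity genes, 19 were called higher in A549 and 1 higher in H1299, and 23 were within background in both. CDH1, E-cadherin of adherens junctions, read 9.56, 9.76, 10.56 and 9.24 in A549 and 3.46, 3.67, 3.39, 3.15 and 2.98 in H1299. EPCAM, an epithelial adhesion molecule, read 9.65, 9.77, 9.14 and 9.59 in A549 and 4.82, 3.94, 3.59, 3.18 and 4.07 in H1299. No H1299 array reached the A549 range for either gene. The claudin CLDN2 (log2 difference 8.11, SE 0.25, adjusted p = 6.59e-12), MARVELD2 of tricellular tight junctions (log2 difference 5.36, SE 0.20, adjusted p = 4.38e-11), the ETS factor EHF (log2 difference 7.35, SE 0.28, adjusted p = 5.34e-11) and desmoplakin DSP (log2 difference 4.92, SE 0.20, adjusted p = 1.38e-10) followed. DSC2, a desmosomal cadherin, was the one member higher in H1299, 7.70 ± 0.32 in H1299 against 6 ± 0.32 in A549, and lay within background in A549. ESRP1, an epithelial splicing factor, was within background in both lines (3.17 ± 0.24 in A549 and 3.35 ± 0.37 in H1299). Of 12 keratins, 6 were called higher in A549 and 0 in H1299, and 6 were within background in both. KRT7, a keratin of simple glandular epithelia, read 17.08, 17.05, 16.81 and 16.36 in A549 and 4.06, 5.98, 4.65, 3.86 and 3.53 in H1299. KRT19 read 10.33 ± 0.64 in A549 against 4.20 ± 1.01 in H1299, while KRT8 and KRT18, the pair of all simple epithelia, were high in both lines and differed by 3.73 and 3.20.

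Markers of lung lineage did not part the lines as a list (8 of 34 measured members were called higher in A549 and 6 higher in H1299; 22 were within background in both). NKX2-1, the factor of lung identity, read 2.84, 2.69, 3.11 and 2.52 in A549 and 2.57, 3.04, 3.59, 2.86 and 2.48 in H1299, within background throughout. So were the surfactant genes SFTPB (4.07 ± 0.34 and 4.29 ± 0.29) and SFTPC (4.32 ± 0.27 and 4.21 ± 0.46) and the aspartic protease NAPSA (2.79 ± 0.36 and 2.93 ± 0.43). These markers of alveolar type II cells were chosen after their values were seen. Of the 16 alveolar markers measured, 4 were above background in at least 1 line. The foregut factors FOXA2 and FOXA1 were present in A549. FOXA2 read 10.27, 10.34, 9.33 and 9.35 in A549 and 3.69, 3.65, 3.62, 3.69 and 3.65 in H1299, with FOXA1 at 10.07 ± 0.38 in A549 against 6.03 ± 0.57 in H1299. Airway mucins stood out: MUC5AC, the main mucin of goblet cells, read 12.06, 12.84, 12.20 and 12.24 in A549 and 2.64, 2.09, 2.60, 3 and 3.12 in H1299. MUC5B, of airway glands, read 13.12 ± 0.25 in A549 against 4.15 ± 0.67 in H1299. The water channel AQP3 followed at 10.42 ± 0.28 in A549 against 3.38 ± 0.53 in H1299. In the other direction, LAMP3 of lamellar bodies (5.09 ± 0.53, 8.74 ± 0.22), ETV5 (10.48 ± 0.36, 11.70 ± 0.19), the lipid transporter ABCA3 (8.06 ± 0.45, 9.22 ± 0.15) and GATA6 (6.31 ± 0.32, 7.25 ± 0.39) were higher in H1299. SFTPD was called higher in H1299 by 0.88, within background in both lines.

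A549 also carried RNA of proteins that the liver secretes. Of 38 liver and gut markers, 23 were called higher in A549 and 1 in H1299, and 20 were within background in both. On the A549 side were 14 of 22 plasma protein genes and 8 of 12 gut markers. Within background in both lines were 11 of the 22 and 6 of the 12, so some of these calls lie within background. The 3 chains of fibrinogen, the clotting protein, had high signal on every A549 array: FGA read 14.83, 15.22, 15.18 and 15.39, FGB 15.78, 15.21, 15.42 and 15.27 and FGG 14.24, 13.97, 13.67 and 14.06. In H1299 all 3 were within background, at 2.66 ± 0.23, 2.62 ± 0.42 and 2.71 ± 0.40. H1975 was also at background for each (2.42 ± 0.28, 2.74 ± 0.42 and 3.06 ± 0.52, n = 4). FGL1, a fibrinogen-like liver protein (log2 difference 10.29, SE 0.24, adjusted p = 4.77e-13), APOH, a plasma glycoprotein (log2 difference 8.68, SE 0.28, adjusted p = 9.66e-12), and the complement factor C3 (log2 difference 8.64, SE 0.34, adjusted p = 9.05e-11) followed. Albumin, ALB, the leading liver product, was within background in both lines (3.96 ± 0.49 and 4.22 ± 0.31), as was apolipoprotein APOB (2.85 ± 0.25 and 3.04 ± 0.20). DPP4 was called higher in H1299 by 0.66 with both lines within background.

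Mesenchymal genes leaned towards H1299 without being shared out cleanly. Of 29 measured, 15 were called higher in H1299 and 5 higher in A549, with 6 of 9 transcription factors on the H1299 side. PRRX1, a factor of mesenchyme, read 3.38, 3.06, 2.90 and 3.44 in A549 and 8.81, 9.05, 9.59, 9.47 and 9.33 in H1299, from background to well above it. ZEB2, a repressor of E-cadherin, read 6.66, 7.61, 6.89 and 5.97 in A549 and 10.59, 11.09, 11.32, 10.66 and 11.13 in H1299. Its relative ZEB1 was above background in both lines and higher in H1299 (log2 difference -1.77, SE 0.20, adjusted p = 5.73e-06). VIM, vimentin of the mesenchymal cytoskeleton, read 12.84, 13.60, 13.85 and 12.49 in A549 and 16.20, 16.15, 16.57, 15.94 and 15.87 in H1299. The receptor kinase AXL (12.59 ± 0.34, 16.35 ± 0.21) and the ecto-enzyme NT5E (13.88 ± 0.09, 16.88 ± 0.24) were high in both and higher in H1299. Against this direction, fibronectin FN1 read 14.61, 14.84, 14.65 and 14.52 in A549 and 7.39, 6.88, 6.52, 6.84 and 6.68 in H1299, a difference of 7.79 (adjusted p = 2.43e-12). S100A4 (12.15 ± 0.59, 4.60 ± 0.63) and SNAI1, the Snail repressor (7.44 ± 1.39, 3.65 ± 0.33), were likewise higher in A549. SNAI1 read 6.62, 7.31, 9.44 and 6.40 on the A549 arrays, with array 3 the highest. THY1 and SNAI2 were called higher in A549 with both lines within background.

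The matrix genes were divided between the lines. Of the collagens and their enzymes, 12 of 33 measured members were called higher in A549 and 6 higher in H1299, and 17 were within background in both. COL5A2, a chain of fibrillar collagen V, read 10.34, 11.05, 11.26 and 10.53 in A549 and 3.92, 3.36, 3.09, 2.95 and 3.27 in H1299. The basement membrane chains COL4A5 (8.69 ± 1.08, 4.28 ± 0.59) and COL4A2 (8.18 ± 0.46, 5.60 ± 0.42) were also higher in A549. The collagen VI chains ran the other way. COL6A1 read 5.53, 4.72, 6.26 and 5.18 in A549 and 11.50, 11.57, 11.42, 10.95 and 10.70 in H1299. COL6A2 read 5.16, 5.62, 5.38 and 4.80 in A549 and 11.07, 11.39, 11.24, 10.40 and 10.77 in H1299, and A549 was within background for both chains. COL12A1 (6.90 ± 0.42, 9.56 ± 0.40) and the cross-linking enzyme LOXL1 (2.75 ± 0.31, 9.29 ± 0.31) were higher in H1299. The lysyl hydroxylase PLOD2 (14.55 ± 0.23, 11.21 ± 0.30) and prolyl hydroxylase P4HA2 (10.63 ± 0.33, 8.54 ± 0.24) were higher in A549, and PLOD3 was higher in H1299 by 1.47.

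Of the laminins, integrins and basement membrane genes, 11 of 26 measured members were called higher in A549 and 7 higher in H1299. Integrin ITGB4 of hemidesmosomes (8.88 ± 0.25, 5.36 ± 0.33), the collagen receptor ITGA2 (9.41 ± 0.12, 6.97 ± 0.29), the vitronectin receptor chains ITGAV (11.52 ± 0.22, 9.16 ± 0.26) and ITGB5 (12.65 ± 0.31, 9.57 ± 0.52), and laminin LAMB1 (13.89 ± 0.41, 11.55 ± 0.38) were higher in A549. ITGA4, a chain of the VCAM1 and fibronectin receptor, read 3.22, 2.86, 3.08 and 3.33 in A549 and 9.36, 9.30, 9.35, 9.69 and 9.59 in H1299. LAMA2 (3.73 ± 0.26, 8.68 ± 0.27), ITGA10 (4 ± 0.07, 7.83 ± 0.44), ITGA6 (11.32 ± 0.25, 14.20 ± 0.28) and nidogen NID1 (7.08 ± 0.63, 9.57 ± 0.51) were also higher in H1299. ITGA6 was well above background in both lines. In the matricellular and proteoglycan list, 14 of 33 measured members were called higher in A549 and 7 higher in H1299. TGFBI, an adhesive matrix protein induced by TGF-beta, read 14.69, 14.33, 14.48 and 14.41 in A549 and 3.78, 4.13, 3.46, 3.18 and 3.68 in H1299. THBS1, thrombospondin, read 11.53, 11.37, 11.94 and 11.51 in A549 and 3.71, 4.39, 3.68, 3.92 and 3.69 in H1299. SRGN (11.35 ± 0.72, 3.38 ± 0.08), osteopontin SPP1 (13.91 ± 0.55, 8.31 ± 0.35) and syndecan SDC1 (11.52 ± 0.17, 6.62 ± 0.45) joined them. CCN1, a secreted integrin ligand that growth signals induce, stood on the H1299 side at 13.28, 14.57, 13.96, 14.05 and 14.37, against 9.44, 9.53, 10.75 and 9.44 in A549. LTBP2 (4.85 ± 0.26, 7.93 ± 0.48), SDC3 (9.07 ± 0.55, 11.48 ± 0.28), EFEMP2 (5.39 ± 0.24, 8.80 ± 0.96) and fibrillin FBN1 (6.22 ± 0.56, 7.40 ± 0.50) joined it.

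Matrix proteases were divided nearly evenly (9 of 24 measured members were called higher in A549 and 11 higher in H1299). MMP7, matrilysin of glandular epithelia, read 10.70, 10.68, 10.69 and 9.71 in A549 and 2.92, 3.41, 3.21, 3.24 and 3.31 in H1299. The gelatinase MMP2 (7.36 ± 0.15, 3.14 ± 0.35), MMP15 (6.70 ± 0.82, 3.38 ± 0.57, within background in both) and the inhibitors TIMP4 (10.30 ± 0.29, 5.22 ± 0.29) and SERPINE2 (12.56 ± 0.14, 7.31 ± 0.27) were on the A549 side. The plasminogen activators were on the H1299 side. PLAU, urokinase, read 11.97, 11.64, 11.80 and 11.39 in A549 and 15.12, 15.53, 15.25, 14.92 and 15.10 in H1299. Its receptor PLAUR (10.03 ± 0.30, 13.47 ± 0.23) and PLAT, the tissue activator (5.67 ± 0.77, 12.41 ± 0.27), were on the same side. The membrane-bound proteases MMP14 (5.54 ± 0.61, 10.63 ± 0.27) and MMP16 (3.71 ± 0.66, 9.10 ± 0.41) were higher in H1299, with A549 within background.

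**Figure D3:**
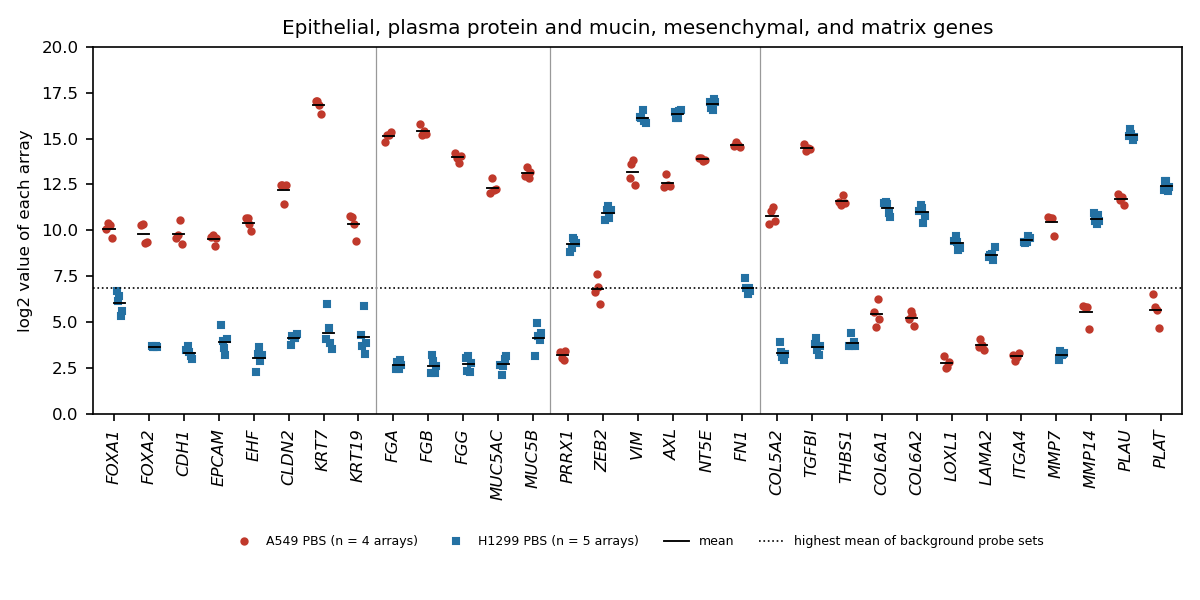
Log2 value on each A549 PBS array (circles) and each H1299 PBS array (squares) of epithelial and lineage factors and keratins (left block), fibrinogen chains and mucins (next), mesenchymal genes (next) and matrix genes (right), with group means as black lines and the highest background mean, 6.85, as a dotted line. The A549 and H1299 arrays overlap in none of the 31 genes, which were chosen among called genes; FN1 is the mesenchymal gene shown with the higher values in A549.

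In the glucose list, 16 of 31 measured members were called higher in A549 and 5 higher in H1299, with a median of 0.79. The hexokinases differed by form. HK2, the inducible form of muscle and many tumours, read 4.98, 4.85, 4.55 and 3.89 in A549 and 8.04, 8.72, 8.32, 7.24 and 8.01 in H1299, from background to above it. HK1, the form of most tissues, read 9.35, 9.35, 8.85 and 8.66 in A549 and 6.54, 7.68, 6.72, 6.69 and 6.34 in H1299. HKDC1, a further hexokinase, read 8.05 ± 0.49 in A549 against 2.91 ± 0.46 in H1299. PFKFB3, which makes the activator of phosphofructokinase, was higher in A549 (10.39 ± 0.16, 6.38 ± 0.44), as was lactate dehydrogenase LDHA (16.26 ± 0.11, 14.51 ± 0.27). The kinases that shut pyruvate dehydrogenase also differed by form: PDK4 read 10.93, 9.70, 12.12 and 10.31 in A549 and 3.24, 3.27, 3.98, 3.17 and 2.15 in H1299. PDK1 (8.03 ± 0.55, 10.35 ± 0.24) and PDK2 (12.13 ± 0.19, 12.92 ± 0.24) were higher in H1299. The muscle phosphofructokinase PFKM was higher in H1299 by 1.48. Of 22 measured genes of the citrate cycle and its feeder enzymes, 3 (13.6%) were called higher in A549 and 4 (18.2%) higher in H1299. The median was -0.10. Among all genes above background in at least 1 line, as 21 of the 22 were, the shares were higher, 28.3% and 33.4%. With the run as a block, 6 of the 22 were called higher in A549 and 5 in H1299. IDH1, which makes cytosolic NADPH, read 15.27, 15, 15.23 and 15.08 in A549 and 11.28, 11.86, 12.02, 11.63 and 11.73 in H1299. IDH3A (15.13 ± 0.14, 13.87 ± 0.16) and citrate lyase ACLY (14.78 ± 0.07, 13.64 ± 0.26) were higher in A549. Mitochondrial malic enzyme ME2 (11.61 ± 0.13, 13.76 ± 0.07), OGDH (11.36 ± 0.23, 12.78 ± 0.40) and SDHD (11.19 ± 0.28, 12.21 ± 0.42) were higher in H1299, so the malic enzymes ME1 and ME2 lay on opposite sides.

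Amino acid metabolism leaned towards H1299 on the untreated arrays. Of 32 measured members, 15 (46.9%) were called higher there and 7 (21.9%) in A549. Among all genes above background in at least 1 line, as 30 of the 32 were, the shares were 33.4% and 28.3%. Of the serine and folate enzymes 7 of 11 were higher in H1299 and 1 in A549. The median was -0.45 for the list and -0.76 for the serine and folate enzymes. On the Omomyc arrays these medians had the opposite sign, 0.66 and 0.59. ASNS, asparagine synthetase, read 13.09, 13, 13.55 and 12.84 in A549 and 14.97, 15.98, 15.88, 15.27 and 15.46 in H1299. PHGDH, the first enzyme of serine synthesis, read 12.18, 12.17, 12.67 and 12 in A549 and 13.79, 14.70, 15.02, 14.25 and 13.94 in H1299. The mitochondrial folate enzyme MTHFD1L (11.07 ± 0.54, 13.30 ± 0.18) was higher in H1299 as well. CBS of transsulfuration (10.47 ± 0.47, 13.67 ± 0.25), spermine synthase SMS (13.28 ± 0.12, 15.61 ± 0.12) and arginase ARG2 (4.17 ± 0.54, 9.85 ± 0.64) were also higher in H1299. On the A549 side stood the urea cycle enzyme CPS1 (11.54 ± 0.16, 7.20 ± 0.28) and its partner ASS1 (10.75 ± 0.21, 6.80 ± 0.25), NNMT, which methylates nicotinamide (9.70 ± 0.27, 4.08 ± 0.15), SAT1, which acetylates polyamines (14.99 ± 0.46, 11.95 ± 0.34), and MAT2A, which makes S-adenosylmethionine (18.31 ± 0.20, 15.96 ± 0.16).

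Sterol genes leaned towards H1299. Of 19 measured sterol synthesis and uptake genes 9 were called higher in H1299 and 0 in A549 (with the run as a block, 2 in A549 and 11 in H1299), with a median of -0.83. LSS, lanosterol synthase, read 7.73, 7.97, 7.83 and 7.65 in A549 and 10.86, 11.28, 11.29, 10.46 and 10.24 in H1299. MSMO1 (14.01 ± 0.09, 16.35 ± 0.20) and TM7SF2 (8.55 ± 0.31, 11.05 ± 0.28) had the same direction. Of 12 fatty acid synthesis genes 4 were higher in A549 and 6 in H1299. FASN, fatty acid synthase, was higher in H1299 (log2 difference -2.18, SE 0.22, adjusted p = 2.05e-06), as was ACSL4, which activates polyunsaturated fatty acids (log2 difference -3.54, SE 0.23, adjusted p = 1.42e-08), while the desaturase FADS2 was higher in A549 (log2 difference 3.95, SE 0.19, adjusted p = 6.25e-10). PTGS2, cyclooxygenase 2 of prostaglandin synthesis, read 11.86, 12.35, 12.94 and 11.24 in A549 and 2.69, 3.14, 3.94, 4.10 and 3.22 in H1299. The synthase PTGES (10.33 ± 0.33, 5.82 ± 0.48) and HPGD, which degrades prostaglandins (14.26 ± 0.17, 3.59 ± 0.44), followed. PPARG, a lipid-sensing receptor, was higher in A549 (8.98 ± 0.28, 4.96 ± 0.31) and its coactivator PPARGC1A higher in H1299 (5.14 ± 0.33, 9.89 ± 0.17). Over the whole list of 39, 9 were higher in A549 and 17 in H1299.

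The stress programs did not share 1 direction. In the unfolded protein response, which enlarges the folding capacity of the endoplasmic reticulum, 18 of 24 measured members were called higher in A549 and 0 higher in H1299, with a median of 1.24. XBP1, its main transcription factor, read 12.93, 12.85, 12.97 and 12.66 in A549 and 10.43, 11.15, 11.22, 10.43 and 10.23 in H1299. EDEM1 (8.91 ± 0.24, 6.11 ± 0.58) and HERPUD1 (12.98 ± 0.28, 11.16 ± 0.21) of disposal, and the folding enzymes PDIA4 (12.30 ± 0.22, 10.04 ± 0.60) and ERO1B (8.91 ± 0.30, 6.84 ± 0.36), were higher in A549. The chaperone HSPA5 differed less (log2 difference 0.80, SE 0.19, adjusted p = 0.00329). Genes of the ATF4 program, the response to amino acid shortage and other stresses, were divided. Of 30 measured members, 12 (40%) were called higher in A549 and 8 (26.7%) higher in H1299, with a median of -0.11. Among all genes above background in at least 1 line, as 28 of the 30 were, the shares were 28.3% and 33.4%. On the Omomyc arrays the median was 1.45. ATF4 itself was not called (13.95 ± 0.33, 14.09 ± 0.15). NUPR1, a stress-induced chromatin protein, read 12.68, 12.77, 12.83 and 11.50 in A549 and 6.51, 7.30, 7.65, 5.93 and 5.75 in H1299. GDF15, a secreted stress factor, read 12.23, 12.07, 13.92 and 10.88 in A549 and 7.79, 8.02, 7.93, 7.27 and 6.94 in H1299. TRIB3 (12.97 ± 0.30, 10.86 ± 0.41) and the amino acid carrier SLC7A5 (16.55 ± 0.15, 14.28 ± 0.12) were on the same side. CHAC1, which breaks down glutathione, was on the H1299 side at 13.96, 13.73, 13.42, 13.20 and 13.29 against 10.31, 10.92, 10.57 and 10.53 in A549. SESN2 (7.86 ± 0.28, 10.16 ± 0.27), ASNS, PHGDH and GARS1 (14.77 ± 0.07, 15.77 ± 0.09) lay there too. So SLC7A11 and CHAC1, which import the precursor of glutathione and degrade it, were on opposite sides.

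Of the cytosolic heat shock genes, 8 of 19 measured members were called higher in A549 and 2 higher in H1299. HSPA1A, the inducible HSP70, read 12.58, 12.45, 12.54 and 12.03 in A549 and 9.70, 10.02, 10.36, 9.12 and 8.99 in H1299. HSPB8 (8.93 ± 0.70, 4.87 ± 0.22), DNAJA1 (13.95 ± 0.30, 12.14 ± 0.38) and HSPE1 (12.28 ± 0.35, 10.87 ± 0.46) were on the same side, and CRYAB was called with both lines within background. HSPA4L (10.35 ± 0.08, 11.52 ± 0.21) and HSP90AB1 (15.21 ± 0.16, 15.92 ± 0.22) were higher in H1299. HSPA1A has a near-identical neighbour in the genome, and its value may include that gene's signal. Of the hypoxia targets outside glycolysis, 8 of 18 measured members were called higher in A549 and 2 higher in H1299. EPAS1, the gene of HIF-2 alpha, read 14.39, 14.58, 14.40 and 13.95 in A549 and 7.78, 7.71, 7.46, 6.92 and 7.28 in H1299. CA12, NDRG1 (9.07 ± 0.31, 5.52 ± 0.20), adrenomedullin ADM (10.94 ± 0.55, 7.12 ± 0.56) and EGLN1 (11.71 ± 0.19, 9.92 ± 0.14) were higher in A549. The secreted STC1 was higher in H1299 (12.47 ± 0.18, 15.30 ± 0.32), as was MXI1 by 0.60, and VEGFA was not called (11.59 ± 0.57, 11.68 ± 0.31).

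p53 target genes leaned towards A549, with 18 of 29 measured members called higher there and 5 higher in H1299, and a median of 1.29. EDA2R, a death receptor of the TNF family, read 12.12, 13.05, 12.58 and 12.64 in A549 and 3.67, 4.06, 3.11, 2.99 and 2.67 in H1299, where it was within background. CDKN1A, the p21 inhibitor of cyclin kinases, read 12.98, 12.73, 13.65 and 12.52 in A549 and 9.82, 9.84, 10.54, 9.46 and 9.42 in H1299. MDM2, the ligase that degrades p53, read 12.21, 11.83, 12.62 and 11.20 in A549 and 10.38, 10.43, 10.60, 10.22 and 10.03 in H1299. For these 3 genes the groups did not overlap. TP53I3 (12.45 ± 0.19, 8.59 ± 0.40), PLK2 (12.29 ± 0.80, 7.07 ± 0.47), AEN (11.96 ± 0.56, 8.38 ± 0.34) and PHLDA3 (7.98 ± 0.50, 4.64 ± 0.46) were also higher in A549. Members on the H1299 side were CCNG1, a cyclin that p53 induces (11.90 ± 0.29, 14.62 ± 0.43), SESN2, GADD45A (9.76 ± 0.23, 11.53 ± 0.17), PMAIP1 and POLH. PMAIP1 was called by 0.89 and lost without A549 array 4 (-0.64 then). POLH was called by 0.69 and lost without any 1 of A549 arrays 1 and 4 and H1299 arrays 1, 2 and 3 (-0.50 to -0.70 then). SESN2 on the H1299 side and GDF15 on the A549 side are also members of the ATF4 list. The cause of either direction was not tested.

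Cell cycle genes leaned towards H1299. Of 40 measured, 28 were called higher in H1299 and 3 higher in A549, with a median of -1.20; in the G2 and mitosis group 11 of 14 were higher in H1299. CDC20, which activates the anaphase ligase, read 9.65, 10.02, 9.81 and 9.09 in A549 and 12.75, 13.30, 13.67, 12.77 and 12.56 in H1299. CCNA2, cyclin A2, read 9.83, 10.04, 9.51 and 9 in A549 and 12.64, 12.19, 12.87, 12.39 and 12.31 in H1299. CDT1 of origin licensing (4.92 ± 0.43, 8.48 ± 0.56) was within background in A549. No A549 array reached the H1299 range in these 3. MKI67, the proliferation marker, was not called (12.02 ± 0.41, 12.26 ± 0.21), nor was TOP2A (13.12 ± 0.04, 13.07 ± 0.34). Against the direction of the list, PCNA, the replication clamp, read 12.76, 12.12, 12.12 and 12.12 in A549 and 10.04, 9.91, 9.89, 8.93 and 9.32 in H1299. Cyclin D3, CCND3, read 12.96 ± 0.22 in A549 against 9.59 ± 0.34 in H1299. Growth rate and the share of cells in each phase were not measured. Beside CDKN2A, its neighbour CDKN2B read 3.91, 4.28, 4.17 and 4.27 in A549 and 7.42, 8.32, 7.85, 7.75 and 8.22 in H1299, also within background on every A549 array. MTAP, the next gene along the chromosome, read 7.09, 8.06, 9.35 and 7.27 in A549 and 9.50, 9.51, 9.83, 9.64 and 9.72 in H1299, above background in both.

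The list drawn up for genes altered in these lines held 12 measured members, of which 3 were higher in A549 and 5 in H1299. SMARCA4, a chromatin remodelling ATPase, was near the background ceiling in both lines. It read 5.33, 6.08, 6.99 and 5.55 in A549 and 7.20, 7.44, 7.53, 6.33 and 6.98 in H1299. The call (adjusted p = 0.0167) was lost without A549 array 1 or 4, when the difference was -0.89 or -0.96. The A549 mean was within background and the H1299 mean just above it, with H1975 at 12.38 ± 0.25. Its relative SMARCA2 was higher in A549 by 1.30, and NF1 by 0.76. STK11, the kinase LKB1, did not pass (9.54 ± 0.30, 10.07 ± 0.31, adjusted p = 0.0783). MYC, the target of Omomyc, read 12.24, 12.43, 13.19 and 12.23 in A549 and 13.35, 13.20, 13.16, 12.96 and 13.07 in H1299. It was called higher in H1299 by 0.63 (adjusted p = 0.0412), and the call was lost without any 1 of 7 of the 9 arrays, with differences of -0.53 to -0.64; the exceptions were A549 array 3 and H1299 array 4. In run 2 alone the difference was 0.01. Its partner MAX did not differ past the threshold (11.96 ± 0.18, 12.20 ± 0.22), and MYCN and MYCL were within background in both.

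Inflammatory genes were divided between the lines. In the NF-kB and cytokine list, 16 of 28 measured members were called higher in A549 and 6 higher in H1299, and 7 of 9 chemokines were higher in A549. CXCL5, a chemokine of neutrophils, read 14.82, 14.97, 14.56 and 14.31 in A549 and 3.45, 3.37, 3.33, 3.44 and 3.36 in H1299. TNFAIP2 (12.13 ± 0.21, 3.98 ± 0.50), IL18 (10.02 ± 0.31, 3.01 ± 0.39), CSF1 (12.38 ± 0.33, 8.11 ± 0.32) and TNFSF10, the TRAIL ligand (8.15 ± 0.45, 3.79 ± 0.44), were also higher in A549. Subunits of NF-kB were higher in H1299: RELB read 7.75, 7.20, 8.10 and 7.12 in A549 and 10.02, 10.60, 9.83, 9.57 and 9.48 in H1299. NFKB1 (8.49 ± 0.43, 10.03 ± 0.32) followed, with NFKB2 by 0.93, ICAM1 by 2.03 and TGFB1 by 1.25. Interferon-stimulated genes and sensors leaned towards H1299 (6 of 26 measured members were called higher in A549 and 13 higher in H1299). Of the 26, 12 were within background in both. IFIH1, the sensor MDA5 of double-stranded RNA, read 5.61, 5.28, 4.96 and 4.38 in A549 and 9.54, 9.76, 10.00, 9.28 and 9.63 in H1299. TLR3 (4.75 ± 0.17, 7.73 ± 0.46), STING1 (4.80 ± 0.83, 7.59 ± 0.40) and GBP2 (5.14 ± 0.36, 7.37 ± 0.22) had the same direction, and GBP1 was called with both lines within background. OAS1, another sensor, was the opposite at 10.12 ± 0.51 in A549 against 3.96 ± 0.73 in H1299. IRF9 (8.80 ± 0.55, 7.30 ± 0.64), IRF1 by 0.99 and IFITM1 by 1.31 were higher in A549. In antigen presentation, 2 of 17 measured members were called higher in A549 and 5 higher in H1299 (with the run as a block, 4 in A549 and 5 in H1299). The immunoproteasome subunits PSMB8 (8.38 ± 0.41, 10.47 ± 0.67) and PSMB9 (8.01 ± 0.58, 10.17 ± 0.68), the peptide transporter TAP2 by 1.63 and B2M by 1 were higher in H1299, and HLA-DMA (9.84 ± 0.23, 7.01 ± 0.39) higher in A549.

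Growth factors and receptors held 20 genes higher in A549 and 9 higher in H1299 of 45 measured. All 5 called IGF-binding proteins of 7 were higher in A549. IGFBP4 read 14.95, 15, 15 and 14.79 in A549 and 3.37, 3.95, 4.49, 3.82 and 3.69 in H1299. IGFBP3 (15.17 ± 0.17, 7.36 ± 0.57) and IGFBP7 (14.16 ± 0.13, 6.35 ± 0.64) followed. The EGF receptor ligand EREG (10.91 ± 0.28, 3.05 ± 0.37) and INHBB, a subunit of activins (11.39 ± 0.68, 3.60 ± 0.36), were higher in A549. DKK3 (7.39 ± 0.36, 10.28 ± 0.26), PDGFC (5.33 ± 0.33, 7.30 ± 0.60), the receptor EPHA2 (8.85 ± 0.36, 10.11 ± 0.33), TGFA by 1.14 and AXL were on the H1299 side. Of the neuronal and neuroendocrine markers, 7 of 31 measured members were called higher in A549 and 3 higher in H1299, and 25 were within background in both. SNAP25 of synaptic vesicle fusion (11.04 ± 0.27, 3.58 ± 0.33), the peptide NTS (10.99 ± 0.58, 2.92 ± 0.10) and granule protein CHGB (8.77 ± 0.35, 6.42 ± 0.73) were higher in A549. NTS is the peptide that NTSR1 binds, so ligand and receptor RNA were each high in the line where the other was within background. UCHL1 was high in both lines (17.37 ± 0.36, 16.16 ± 0.56). The peptide-processing enzyme CPE (4.59 ± 0.50, 9.42 ± 0.45) and the filament INA (11.03 ± 0.44, 11.98 ± 0.12) were higher in H1299, and DPYSL3 was called with both lines within background.

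Of the cancer-testis genes, 1 of 27 measured members was called higher in A549 and 10 higher in H1299, and 16 were within background in both. MAGEA4 read 4.58, 3.75, 3.99 and 3.93 in A549 and 13.91, 14.42, 14.48, 13.87 and 14.20 in H1299. MAGEA6 (4.78 ± 0.36, 11.75 ± 0.61) and MAGEA2 (4.62 ± 0.29, 11.44 ± 0.62), near copies of each other, lay on the same side. PRAME was the exception, high in both and higher in A549 (13.08 ± 0.23, 11.20 ± 0.15). HOX genes, which mark position along the body axis, were divided (6 of 23 measured members were called higher in A549 and 8 higher in H1299). Of the 23, 13 were within background in both. HOXB2 read 6.78, 7.51, 6.30 and 7.22 in A549 and 13.16, 12.07, 12.76, 11.96 and 12.51 in H1299. HOXC8 (7.06 ± 0.61, 10.60 ± 0.13), HOXC10 (5.03 ± 0.76, 9.36 ± 0.40), HOXD9 by 2.68 and HOXD13 by 3.28 (the last 2 within background in both lines) were on its side. HOXB6 (8.62 ± 0.46, 4.82 ± 0.72), HOXC13 (8.86 ± 0.22, 6 ± 0.74) and HOXB5 (7.03 ± 0.24, 4.88 ± 0.57) were higher in A549, so genes of the HOXB and HOXC clusters stood on both sides. HOXA2 and HOXB13 were called higher in A549 with both lines within background. Of the imprinted genes, 4 of 15 measured members were called higher in A549 and 3 higher in H1299, and 9 were within background in both. MEST (11.20 ± 0.18, 3.06 ± 0.45) and the adaptor GRB10 (9.13 ± 0.80, 2.91 ± 0.37) were higher in A549, and PHLDA2 (6.47 ± 0.29, 8.67 ± 0.61) and SGCE (11.78 ± 0.18, 12.86 ± 0.10) in H1299.

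**Figure D4:**
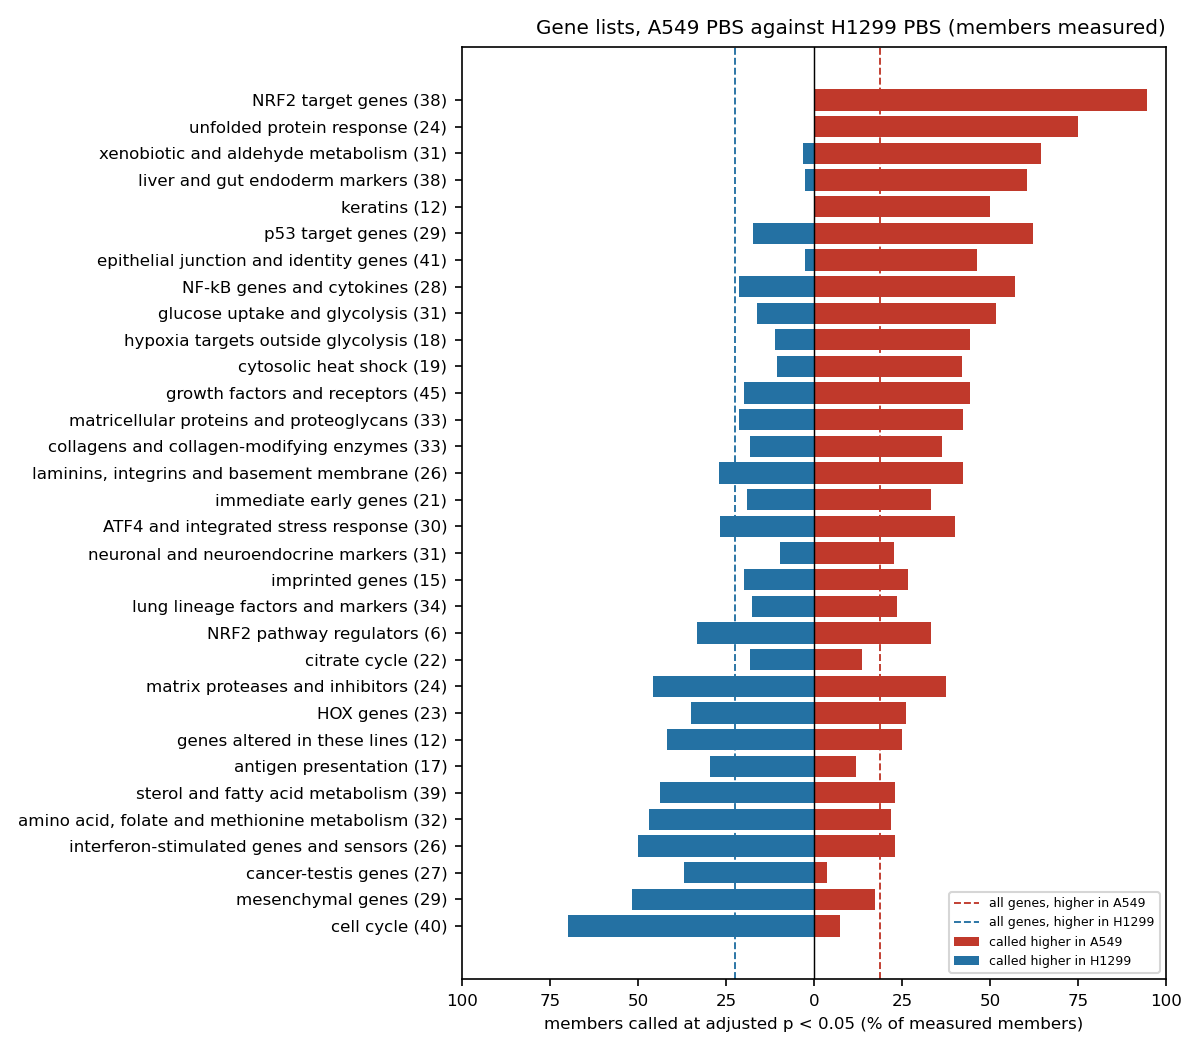
Share of measured members of each gene list (number measured in brackets) that limma called higher in A549 (bars to the right) or in H1299 (bars to the left) at adjusted p under 0.05, with dashed lines at the shares of all genes, 18.8% and 22.3%. NRF2 targets (94.7%) and the unfolded protein response (75%) reach farthest to the A549 side, and the cell cycle (70%) and mesenchymal genes (51.7%) to the H1299 side.

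Immediate early genes, which serum and other growth signals switch on within minutes, set 1 A549 array apart. FOS read 6.69, 5.43, 13.84 and 5.80 on the A549 arrays and 5.07, 5.44, 4.65, 4.72 and 4.57 in H1299. EGR1 read 4.93, 5.62, 15.82 and 5.02 in A549 and 8.35, 7.92, 6.83, 7 and 7.16 in H1299. Among the A549 arrays, array 3 alone was high, and neither gene was called (adjusted p = 0.0744 and 0.888). Of 21 measured, 7 were called higher in A549 and 4 in H1299 (with the run as a block, 12 in A549 and 4 in H1299), with a median of 1.11. Without A549 array 3 the counts were 7 and 5 and the median 0.22. Within runs the median was 0.25, 3.69 and 0.03 in runs 1, 2 and 3, and array 3 is the only A549 array of run 2. Calls that did not rest on that array included SIK1, a kinase induced by cAMP (9.94, 10.25, 11.08 and 10.84 in A549 and 3.83, 3.42, 4.30, 3.85 and 4.05 in H1299), and DUSP1, a MAP kinase phosphatase (12.24, 11.70, 15.22 and 11.60 in A549 and 7.08, 8.03, 7.56, 6.80 and 7.36 in H1299), both higher on every A549 array. The orphan receptor NR4A1 (13.39 ± 1.68, 8 ± 0.78) was likewise higher in A549. NR4A2 differed by 4.32 with array 3 and 2.95 without it, and NR4A3, within background in both lines, by 4.04 and 2.30. FOSL1, an AP-1 subunit, was steady in H1299 and lower in A549, at 14.85, 14.93, 15.05, 14.61 and 14.38 against 8.64, 8.87, 11.04 and 8.56. JUN was called higher in H1299 by 1.16 and IER2 by 1.73; without A549 array 3 the differences were -1.72 and -2.49, in run 2 alone 0.35 and 0.41. JUN lost its call without any 1 of 7 arrays, all but A549 array 3 and H1299 array 5, with differences of -0.89 to -1.21. IER2 lost its call without A549 array 1, 2 or 4, with -1.39 to -1.54.

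**Figure D5:**
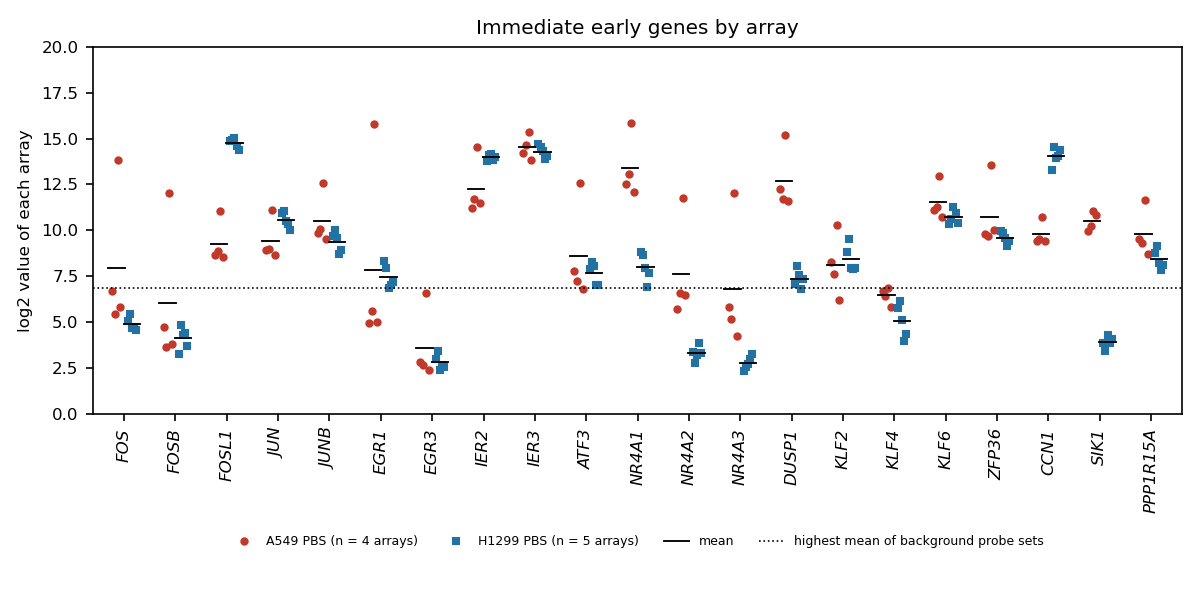
Log2 value of the 21 measured immediate early genes on each A549 PBS array (circles, n = 4) and each H1299 PBS array (squares, n = 5), with means as black lines and the highest background mean, 6.85, dotted. One circle, A549 array 3, stands above the other circles in most genes, reaching 13.84 in FOS and 15.82 in EGR1, while SIK1 and FOSL1 separate the lines on every array.

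The same contrast was read in the Omomyc-treated arrays of the lines (3 of A549 and 5 of H1299), which share no array with the untreated comparison. There 7195 genes (40.7%) were called, and 5684 were called in both comparisons with the same direction, 78.1% of the untreated calls and 79% of the treated ones. Of the 2312 genes at least 4-fold apart, 2274 were called in the same direction and 10 had the opposite direction. The treated arrays lie in the same runs, so they are not free of what the runs may carry. Run 3 held 2 treated arrays of H1299 and 0 of A549, and the fit had no term for the run. Line and run are therefore partly mixed in the treated contrast and in its comparison with the untreated one. The line difference itself differed between untreated and treated arrays at 398 genes (limma interaction, adjusted p under 0.05), 143 of them among the 2312. Several were genes of the ATF4 program: the difference was -2.39 in PBS and 0.11 in Omomyc arrays for ASNS, -2.08 in PBS and 0.71 in Omomyc arrays for PHGDH, -2.94 in PBS and 1.34 in Omomyc arrays for CHAC1 and -2.31 in PBS and 0.89 in Omomyc arrays for SESN2. The untreated H1299 excess of these 4 genes was thus not seen on the treated arrays.

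H1975 was set beside both lines. Among genes at least 4-fold higher in A549, the H1975 mean was nearer to A549 in 551 (44.4%), and among those higher in H1299 it was nearer to A549 in 664 (62%); these are descriptions, since H1975 was not tested here. Among NRF2 targets, AKR1B10 in H1975 (3.75 ± 0.27) was within background as in H1299, AKR1C3 (13.13 ± 0.36) lay between the other lines, MGST1 (15.66 ± 0.15) was nearer to A549, and SLC7A11 (7.45 ± 0.46) was below both. In the epithelial set it shared KRT7 (13.38 ± 0.42) and EPCAM (8.99 ± 0.32) with A549 but not CDH1 (3.93 ± 0.34), and its VIM (16.05 ± 0.20) was at the level of H1299.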

How the data were processed

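RNA of the cultures was measured on 1-colour arrays. The authors deposited log2 signals per probe set; per the submitters' processing notes, RMA and Partek were used (no version or setting is named). Of 24351 probe sets, 17709 had 1 symbol, giving 17687 genes; for 20 with several probe sets the one with the highest mean was kept.

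A549 minus H1299 was fitted on the 9 PBS arrays with limma 3.58.1 in R 4.3.3 (7 residual degrees of freedom), with Benjamini-Hochberg adjustment over all 17687 genes. Genes were called at adjusted p under 0.05. The members and gene lists were chosen with earlier results of these data known. Named genes are the 15 widest differences on each side, up to 5 called members per list and direction by p, all NRF2 targets, NRF2 regulators and altered genes, and the cell type markers. ALB, APOB, ATF4, C3, CDKN1A, EGR1, ESRP1, FASN, FOS, HSPA5, MDM2, MKI67, NAPSA, NKX2-1, SFTPB, SFTPC, TOP2A, VEGFA and ZEB1 fall outside that rule and were chosen after their values were seen. Promoters are RefSeq's (GRCh38.p14).

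On simulated data, 42% of genes changed by 1 log2 unit and 90% of those changed by 2 were recovered (100 genes each), with 8 false calls. Only these genes were set apart, out of 17687 simulated, whereas 41.1% of genes were called on the arrays. Values were drawn independently for each array, with no difference between runs. The shares recovered therefore need not hold for the comparison itself. The number of arrays limits the precision. Alternatives covered normalization, filters, blocks, runs and left-out arrays.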

Additional observations from a re-analysis of the deposited data

Results flagged for a closer look

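Some values lay far from the rest of their group, with the gap to the nearest other array above Dixon's critical value at 95%. Chance gives such a gap in about 1 in 20 groups, and it was met in 28 of 630 groups of the named genes and 5 of 74 groups of list means. A549 PBS array 3 had the most, 17 in all. In that array the log2 values of single genes were CBR1 14.16 (others 14.39 to 14.43), CCN1 10.75 (others 9.44 to 9.53), CLDN2 11.44 (others 12.45 to 12.49) and EGR1 15.82 (others 4.93 to 5.62). Then came FOS 13.84 (others 5.43 to 6.69), FOSL1 11.04 (others 8.56 to 8.87), HOXD9 4.97 (others 3.83 to 3.91) and IER2 14.55 (others 11.24 to 11.71). Then came IRF1 7.36 (others 8.06 to 8.17), JUN 11.12 (others 8.64 to 9), NR4A2 11.75 (others 5.70 to 6.56) and PLK2 13.48 (others 11.83 to 11.93). Then came SAT1 15.68 (others 14.73 to 14.81) and STING1 6.03 (others 4.25 to 4.49). Its list means were immediate early genes 12.26 (others 8.19 to 8.62), fibroblast markers 4.31 (others 3.87 to 3.93) and endothelial cell markers 3.38 (others 3.03 to 3.04). In A549 PBS array 4 they were HMOX1 8.44 (others 10.45 to 10.48), MMP14 4.63 (others 5.82 to 5.89), MMP7 9.71 (others 10.68 to 10.70) and NUPR1 11.50 (others 12.68 to 12.83). Its list means were epithelial junction and identity genes 6.87 (others 7.14 to 7.17) and antigen presentation 6.82 (others 7.30 to 7.36). For A549 PBS array 1, such values were B2M 14.73 (others 13.67 to 13.85), COL4A2 7.49 (others 8.37 to 8.46), EFEMP2 5.03 (others 5.49 to 5.55) and PCNA 12.76 (others 12.12 to 12.12). For A549 PBS array 2, the value was MSMO1 13.88 (others 14.05 to 14.06). For H1299 PBS array 2, such values were C3 3.80 (others 1.77 to 2.28) and HK1 7.68 (others 6.34 to 6.72). For H1299 PBS array 3, the value was CA12 5 (others 3.23 to 3.72). For H1299 PBS array 4, the value was PPARG 4.42 (others 5.02 to 5.25). For H1299 PBS array 5, the value was INA 11.77 (others 12 to 12.07).

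The difference between the lines, A549 minus H1299, was not the same in PBS and in Omomyc arrays for 31 of the 315 named genes by the limma interaction term (adjusted p under 0.05 over all genes). The fit had no term for the run, and run 3 held no treated A549 array. Each is given as the PBS difference minus the Omomyc difference in log2 units, with the PBS and the Omomyc difference in brackets. The value was below 0 for AGR2 -1.50 (11.49 and 12.99), ASNS -2.50 (-2.39 and 0.11), ASS1 -2.85 (3.95 and 6.79) and CBS -2.35 (-3.19 and -0.85). Below 0 also stood CHAC1 -4.28 (-2.94 and 1.34), GADD45A -1.19 (-1.77 and -0.59), GARS1 -1.25 (-1 and 0.25) and H2AC8 -2.42 (-9.37 and -6.95). Below 0 also stood HERPUD1 -2.41 (1.82 and 4.23), HSPA5 -1.43 (0.80 and 2.22), IGFBP3 -2.13 (7.81 and 9.94) and LAMP3 -3.27 (-3.66 and -0.39). Below 0 also stood MAX -1.69 (-0.24 and 1.44), PDK1 -1.58 (-2.32 and -0.74), PHGDH -2.79 (-2.08 and 0.71) and SESN2 -3.20 (-2.31 and 0.89). Below 0 also stood SLC7A11 -3.43 (3.39 and 6.81), SLC7A5 -3.22 (2.27 and 5.49), SPP1 -3.63 (5.59 and 9.22) and TRIB3 -2.84 (2.12 and 4.95). Below 0 also stood XBP1 -1.51 (2.16 and 3.67). The value was above 0 for CSF1 1.26 (4.28 and 3.02), GBP2 2.54 (-2.22 and -4.76), ITGA10 1.71 (-3.83 and -5.54) and ITGA2 1.55 (2.44 and 0.89). Above 0 also stood MMP2 1.45 (4.22 and 2.77), MMP7 2.03 (7.23 and 5.19), PFKFB3 1.83 (4.01 and 2.19) and PLAUR 1.84 (-3.44 and -5.28). Above 0 also stood PTGS2 2.04 (8.68 and 6.63) and STC1 1.34 (-2.83 and -4.17). In ASNS, CHAC1, GARS1, PHGDH, SESN2 and MAX, the difference was below 0 in PBS and above 0 in Omomyc arrays.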

How the results depend on the processing

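The number of genes called, 7276, was 8033 after quantile normalization, 7600 after median centring, 8296 with the run as a block and 6618 without moderation of the spread, and 6588 to 7121 when 1 array was left out. Asking the lower mean to be above background left 4111 genes (1805 higher in A549 and 2306 in H1299) and 843 genes 4-fold apart, since fewer genes can qualify. The medians of the lists, in log2 units, moved beyond the spread between replicates in 44 of 736 trials. With low genes left out they were liver and gut endoderm markers 6.31, neuronal and neuroendocrine markers 0.25, epithelial junction and identity genes 1.89, keratins 3.73, mesenchymal genes -0.94, laminins, integrins and basement membrane 0.49, matricellular proteins and proteoglycans 1.19, xenobiotic and aldehyde metabolism 2.96, NF-kB genes and cytokines 2.42, cancer-testis genes -6.29, growth factors and receptors 1.90. In run 1 alone they were neuronal and neuroendocrine markers 0.30, HOX genes 0.00, epithelial junction and identity genes 0.68, keratins 1.67, glucose uptake and glycolysis 1.18, imprinted genes -0.03. In run 2 alone they were keratins 1.03, mesenchymal genes -0.76, matricellular proteins and proteoglycans 0.40, NRF2 pathway regulators 0.30, glucose uptake and glycolysis 0.52, ATF4 and integrated stress response 0.17, cytosolic heat shock 0.57, NF-kB genes and cytokines 1.43, immediate early genes 3.69, imprinted genes -0.31, growth factors and receptors 0.64. In run 3 alone they were keratins 1.66, mesenchymal genes -0.65, laminins, integrins and basement membrane 0.53, cytosolic heat shock 0.52, imprinted genes 0.19, genes altered in these lines -0.09. Mesenchymal genes had -0.65 after quantile normalization, and imprinted genes -0.09 with the run as a block. With 1 array left out, the medians ranged over 0.96 to 1.17 for liver and gut markers, -0.04 to 0.35 for collagens, -0.29 to 0.02 for imprinted genes and 0.34 to 0.60 for growth factors. Of 294 called genes named in the text, 8 lost the call without 1 array, and 3 reversed, all in run 2 alone: IER2 (0.41), JUN (0.35) and MYC (0.01). With the run as a block, the members called higher in A549 and in H1299 moved by over 1.5 times for liver and gut endoderm markers 25 and 2 (from 23 and 1); epithelial junction and identity genes 19 and 2 (from 19 and 1); xenobiotic and aldehyde metabolism 21 and 2 (from 20 and 1); citrate cycle 6 and 5 (from 3 and 4); antigen presentation 4 and 5 (from 2 and 5); immediate early genes 12 and 4 (from 7 and 4). The cause was not tested.

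Array numbers did not meet the bar for pairing, and they partly follow the run. Deviations of same-numbered A549 and H1299 arrays correlated at 0.103, -0.041, 0.285 and 0.363 for numbers 1 to 4; numbers 1, 3 and 4 share a run across the lines and are each the closest match of their A549 array, and number 2 is neither. With the number as a replicate block, 7885 genes were called, and the list medians stayed within the spread between replicates. Signal near background limits 839 of the 4-fold genes higher in A549 and 630 of those higher in H1299, for which the lower line gives only a bound.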

Other observations

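A set of 9 gene families was looked at after values were seen. Zinc finger genes named ZNF, a family of mostly repressive DNA-binding proteins, were higher in H1299 at 205 of 492 (41.7%) and in A549 at 52 (10.6%), against 22.3% and 18.8% of all genes. At least 4-fold differences numbered 80 on the H1299 side and 7 on the A549 side; 65 of the 80 lie on chromosome 19, as do 237 of all 492. H1975 was nearer to H1299 in 64 of the 80. Of 31 H2A and H2B histone genes, whose near-identical copies may share signal, 13 were higher in H1299 and 1 in A549. Annexins, which bind membranes in the presence of calcium, were higher in A549 at 9 of 14 and in H1299 at 2. Solute carriers were higher in A549 at 106 of 363 (29.2%) and in H1299 at 51 (14%), and phosphodiesterases, which break down cyclic nucleotides, at 11 and 2 of 24. In the other families, the counts higher in A549 and in H1299 were 9 and 5 of 51 cytochromes P450, 7 and 4 of 23 dual-specificity phosphatases, 0 and 6 of 10 MAGEA genes and 0 and 5 of 5 GAGE genes.

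Differences also varied by chromosome among genes above background in at least 1 line, where the median over all genes was -0.09. Of these 9289 genes, 28.3% were called higher in A549 and 33.4% higher in H1299. The median was -1.10 on chromosome 6 (332 of 509 genes, 65.2%, higher in H1299 and 62, 12.2%, in A549). It was -1.01 on chromosome 13 and -0.86 on chromosome 4. On chromosome 17 it was 0.65 (265 of 543 genes, 48.8%, higher in A549 and 64, 11.8%, in H1299). On chromosome 19, which holds many ZNF genes, it was -0.57 (277 of 605 higher in H1299, 45.8%, and 117 in A549). On chromosome 6 it was -1.07, -1.14 and -1.17 in runs 1, 2 and 3. Copy number was not measured here.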
